A study of Mus musculus with 12 samples.

Results

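The butyrophilin-like genes of the gut epithelium are 5 mouse genes, Btnl1, Btnl2, Btnl4, Btnl5-ps and Btnl6, that lie together on chromosome 17. They were chosen by the log2 values of KO and floxed tumor epithelium, in which Btnl5-ps showed one of the largest rises. A gene was counted only where a probe set, the group of array probes summarised into 1 value, was mapped to its symbol alone. By that rule 3 of the 5 genes, Btnl1, Btnl2 and Btnl5-ps, could be measured, out of 19938 genes on the arrays. Btnl4 and Btnl6 share 1 probe set that was mapped to both, so its values belong to neither gene and are given only as those of the shared probe set.

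The study hybridised RNA of intestinal epithelium, cut by laser from stained sections, to 12 expression arrays. The groups were 3 arrays of FSPCre-PPARB KO tumor epithelium (KO tumor), 3 of PPARB floxed tumor epithelium (floxed tumor), 2 of KO epithelium next to tumors (KO adjacent) and 2 of floxed epithelium next to tumors (floxed adjacent). A further 2 adjacent arrays carry contradictory genotype labels: array 1 is KO by its title and floxed by its genotype characteristic, and array 2 the reverse. All mice were males of the C57BL6/J strain with the APCmin/+ allele, which gives intestinal tumors, and were kept to 25 weeks of age or until weight loss required an earlier end. The KO mice were FSPCre-PPARB -/- and the controls were PPARB flox/flox littermates. The labels do not spell out FSP. FSP-Cre lines commonly express Cre recombinase from the promoter of fibroblast-specific protein and serve to target fibroblasts, while the tissue measured here is epithelium. The labels do not tie arrays to animals, so a p-value measures the spread between these samples, which may be in part technical.

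Butyrophilin-like proteins are cell surface members of the immunoglobulin superfamily, related to the B7 costimulatory molecules. In the mouse small intestine, enterocytes carry Btnl1 and Btnl6 as a pair that engages the receptor of a resident population of gamma-delta intraepithelial T cells and supports its maturation and upkeep, and Btnl4 can also pair with Btnl1. Btnl2 is known as an inhibitor of T cell activation, and Btnl5-ps is annotated as a transcribed pseudogene. The nuclear receptors HNF4A and HNF4G, which maintain enterocyte identity, are known to promote expression of Btnl genes in the mouse gut.

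The promoters of the 4 members with an entry in the reference table, taken from RefSeq on build GRCm38.p6, are printed 5′ to 3′ on the strand of the gene, from 250 bases before to 50 bases after the start site. Those of Btnl2 and Btnl1 are shown because both hold the letters CAAAGTCC, a core of the HNF4 recognition motif, given in capitals. The motif begins 41 bases before the start of Btnl2 and 28 bases before that of Btnl1. On either strand it occurs in 467 of 32851 promoters of the same length in the table (1.42%). The motifs were chosen after the sequences were seen. A match is a description of letters and not a binding site.

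Btnl2, chr17:34354572-34354871, plus strand: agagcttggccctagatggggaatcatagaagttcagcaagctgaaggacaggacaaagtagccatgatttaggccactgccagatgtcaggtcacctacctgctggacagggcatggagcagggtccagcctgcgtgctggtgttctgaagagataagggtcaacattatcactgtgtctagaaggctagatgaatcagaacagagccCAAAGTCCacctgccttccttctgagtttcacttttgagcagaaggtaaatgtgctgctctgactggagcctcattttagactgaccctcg

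Btnl1, chr17:34376882-34377181, plus strand: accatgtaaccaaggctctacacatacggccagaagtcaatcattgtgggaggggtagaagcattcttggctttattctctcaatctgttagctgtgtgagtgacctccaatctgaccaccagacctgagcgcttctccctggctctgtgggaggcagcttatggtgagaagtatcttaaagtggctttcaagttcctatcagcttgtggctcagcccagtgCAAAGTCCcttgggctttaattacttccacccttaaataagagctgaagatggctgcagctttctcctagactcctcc

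Those of Btnl4 and Btnl6, the genes that share a probe set, are shown because of their likeness. Whether it extends to the bases that the probes read was not tested. The windows were 91.1% identical, with 275 identical, 23 mismatched and 4 gapped positions, and the capitals mark the longest stretch without a difference, 61 bases. Every other pair of the 4 promoters was 48.6% to 50.9% identical.

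Btnl4, chr17:34475888-34476187, minus strand: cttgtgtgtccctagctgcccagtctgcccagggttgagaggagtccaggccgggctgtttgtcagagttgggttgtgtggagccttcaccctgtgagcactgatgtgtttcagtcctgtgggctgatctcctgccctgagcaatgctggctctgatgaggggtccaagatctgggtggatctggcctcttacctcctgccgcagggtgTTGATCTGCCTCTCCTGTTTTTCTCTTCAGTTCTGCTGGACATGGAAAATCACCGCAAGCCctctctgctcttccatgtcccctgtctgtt

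Btnl6, chr17:34517303-34517602, minus strand: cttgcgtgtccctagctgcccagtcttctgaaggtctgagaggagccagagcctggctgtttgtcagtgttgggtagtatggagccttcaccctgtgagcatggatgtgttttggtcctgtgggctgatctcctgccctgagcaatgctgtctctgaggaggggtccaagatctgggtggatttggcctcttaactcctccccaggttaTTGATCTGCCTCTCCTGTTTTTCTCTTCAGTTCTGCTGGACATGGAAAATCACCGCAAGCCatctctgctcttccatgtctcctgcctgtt

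The HNF4 letters did not occur in the windows of Btnl4 and Btnl6. The GATA letters AGATAA, found in 11.2% of all promoters, occurred in the window of Btnl2 and in none of the other 3. The CDX letters TTTATTG, found in 4.6% of all promoters, occurred in none of the 4.

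Some arrays stood apart from the rest, and this touches every genotype comparison. In 4 arrays the median correlation with the others was 0.507 to 0.611 and the SD of the log2 values was 1.04 to 1.09. The other 8 arrays had median correlations of 0.818 to 0.852 and SDs of 1.49 to 1.57. The 4 arrays, called weak-signal arrays here, are floxed tumor arrays 1 and 2 and both floxed adjacent arrays. In adjacent epithelium, genotype and weak signal therefore cannot be told apart. The mean log2 level of 25 villus enterocyte markers ranged from 7.46 to 8.16 in KO tumor, from 5.57 to 8.77 in floxed tumor, from 6.17 to 6.88 in KO adjacent and from 4.77 to 5.81 in floxed adjacent arrays. The lowest, 4.77, was that of floxed adjacent array 2, where the median over all probe sets was 4.437. Ppard, the gene for PPAR beta, had log2 levels of 6.06, 6.07 and 6.50 in KO tumor, against 4.95, 4.48 and 5.79 in floxed tumor arrays, and 5.76 and 5.51 in KO adjacent, against 5.09 and 4.61 in floxed adjacent arrays. It was not lower in KO epithelium. It averaged 6.21 ± 0.25 in KO tumor and 5.07 ± 0.66 in floxed tumor arrays (log2, SD, n = 3 each), a difference of 1.14 with an adjusted p of 0.0991 in limma. The exons covered by its probe set are unknown here, so this value does not check the deletion.

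All Btnl values below are deposited log2 expression values, so a difference of 1 is a doubling. Btnl1 had log2 levels of 7.04, 7.02 and 8.10 in the 3 KO tumor arrays, against 4.90, 4.89 and 6.90 in the floxed tumor arrays. It had 6.03 and 5.63 in KO adjacent, against 4.31 and 4.52 in floxed adjacent arrays. Every KO array stood above every floxed array of the same tissue, and floxed tumor array 3, the one floxed array without weak signal, came closest to the KO arrays. The 2 adjacent arrays of unclear genotype had 4.97 and 6.63.

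Btnl2, the T cell inhibitor, had log2 levels of 6.86, 7.0 and 7.53 in KO tumor arrays, against 6.52, 3.89 and 7.64 in floxed tumor arrays. It had 6.29 and 6.22 in KO adjacent, against 4.87 and 4.65 in floxed adjacent arrays. The tumor groups overlapped, since floxed tumor array 3 had the highest level of all 12 arrays and floxed tumor array 2 the lowest. The arrays of unclear genotype had 5.43 and 6.86.

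Btnl5-ps, the pseudogene, had log2 levels of 9.04, 8.83 and 9.52 in KO tumor arrays, against 4.36, 5.76 and 7.15 in floxed tumor arrays. It had 7.79 and 7.57 in KO adjacent, against 5.07 and 4.58 in floxed adjacent arrays. No KO array overlapped a floxed array, whichever tissue it came from. Among the arrays of unclear genotype, array 1 had 5.86 and array 2 had 8.59, the widest gap between them for any member.

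**Figure D1:**
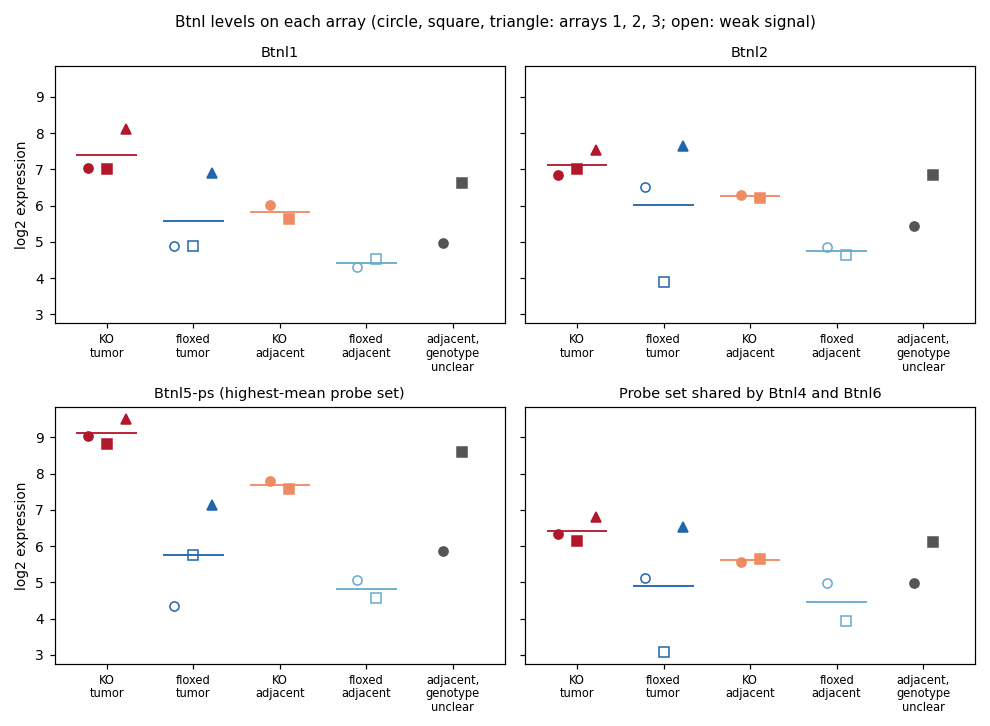
Log2 expression (vertical axis) of Btnl1, Btnl2, Btnl5-ps and the probe set shared by Btnl4 and Btnl6 on each of the 12 arrays, by group (horizontal axis). Circles, squares and triangles are arrays 1, 2 and 3, open symbols are weak-signal arrays, and lines are group means, which are not drawn for the 2 adjacent arrays of unclear genotype. For Btnl5-ps the KO tumor arrays lie between 8.83 and 9.52 and the floxed tumor arrays between 4.36 and 7.15.

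The 4 groups of known genotype stood in the same order for each gene: KO tumor, KO adjacent, floxed tumor, floxed adjacent. The means of Btnl1 were 7.38 ± 0.62, 5.83 ± 0.28, 5.56 ± 1.16 and 4.42 ± 0.15 in that order (log2, SD, n = 3, 2, 3 and 2). KO adjacent and floxed tumor arrays overlapped for Btnl1, while the other neighbours in the order did not. The means of Btnl2 were 7.13 ± 0.35, 6.26 ± 0.05, 6.02 ± 1.92 and 4.76 ± 0.16, and the wide floxed tumor group overlapped both of its neighbours. The means of Btnl5-ps were 9.13 ± 0.35, 7.68 ± 0.16, 5.76 ± 1.40 and 4.82 ± 0.34, and only the 2 floxed groups overlapped.

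The probe set shared by Btnl4 and Btnl6 kept that order. Its log2 levels were 6.32, 6.14 and 6.80 in KO tumor arrays, against 5.13, 3.07 and 6.52 in floxed tumor arrays. They were 5.57 and 5.65 in KO adjacent, against 4.99 and 3.95 in floxed adjacent arrays. Floxed tumor array 2 was the lowest of all, as for Btnl2, and floxed tumor array 3 lay among the KO tumor arrays, whereas for Btnl2 it stood above them. The arrays of unclear genotype had 4.98 and 6.12.

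Btnl5-ps has 3 probe sets of its own, and the values above come from the one with the highest mean over the 12 arrays. The second probe set had log2 levels of 6.39, 6.20 and 6.92 in KO tumor arrays, against 6.31, 6.62 and 7.25 in floxed tumor arrays. The third had 6.64, 6.17 and 6.78 in KO tumor arrays, against 4.62, 6.08 and 7.27 in floxed tumor arrays. Both overlapped between the genotypes, with mean differences of -0.22 and 0.54 on the log2 scale, against 3.38 for the first. In adjacent epithelium the second had 5.97 and 5.79 in KO, against 5.87 and 6.21 in floxed arrays, and the third had 5.92 and 6.17 in KO, against 5.26 and 5.56 in floxed arrays. The separation of the genotypes by Btnl5-ps therefore rests on 1 of its 3 probe sets. Its lead comes from the KO arrays: over the 5 floxed arrays alone the second probe set had the highest mean, while over the 6 tumor arrays alone the first did. With the mean of the 3 probe sets in place of the first, the KO minus floxed difference was 1.23 in tumor epithelium.

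**Figure D2:**
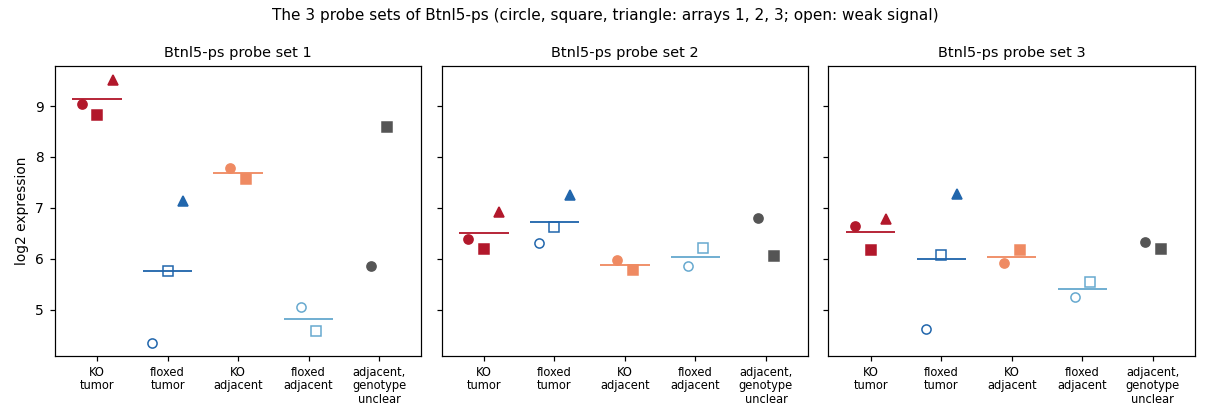
Log2 expression (vertical axis) of the 3 probe sets of Btnl5-ps on each array, by group (horizontal axis). Symbols are arrays 1 to 3, open symbols are weak-signal arrays and lines are group means. Probe set 1 separates KO from floxed arrays, whereas probe sets 2 and 3 differ between KO and floxed tumor by -0.22 and 0.54 on the log2 scale.

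The first comparison, KO against floxed tumor epithelium, set mice with the FSPCre deletion of PPARB beside their littermates, and it is the one that chose the genes. Its member values are a description and were not tested. Btnl5-ps was 3.38 higher in KO tumor on the log2 scale, a 10.4-fold difference of means and the 13th largest rise of 19938 genes. Btnl1 was 1.82 higher, the 145th largest, and Btnl2 was 1.11 higher, the 781st. The shared Btnl4 and Btnl6 probe set was 1.51 higher. The groups did not overlap for Btnl1 and Btnl5-ps, 2 of 3 genes, and 13.2% of all genes were higher in KO tumor without overlap. Across all genes 215 passed the test, an adjusted p under 0.05 in limma (1.08%), 136 of them higher (0.682%) and 79 lower (0.396%) in KO tumor. After a further quantile normalization 8 passed, 6 higher and 2 lower. In a fit blocked on the replicate number 782 passed.

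Of the 3 floxed tumor arrays, only array 3 is without weak signal. Against floxed tumor array 3 alone, the KO tumor mean was 1.98 higher for the first probe set of Btnl5-ps and 0.48 higher for Btnl1. It was lower for Btnl2, where the sign turned (a difference of -0.51). The second probe set of Btnl5-ps averaged 6.50 in KO tumor, against 7.25 on array 3, and the third 6.53, against 7.27. The shared Btnl4 and Btnl6 probe set averaged 6.42 in KO tumor, against 6.52 on array 3. With a single floxed array, these differences have no replicate check on the floxed side.

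KO against floxed adjacent epithelium asked the genotype question in arrays whose genotype difference did not choose the genes. For Btnl5-ps, however, the probe set was taken by its mean over all 12 arrays, these included, and it led through its KO values, so its test is not independent of that choice. Btnl5-ps averaged 7.68 ± 0.16 in KO adjacent and 4.82 ± 0.34 in floxed adjacent arrays (log2, SD, n = 2 each). It was 2.86 higher in KO (SE 0.67, 95% confidence interval 1.37 to 4.34, adjusted p = 0.0381 in limma), and both KO arrays stood above both floxed arrays. Taken over the 6 tumor arrays, the same probe set was chosen and the call was kept (adjusted p = 0.0379). Taken over the 5 floxed arrays, the second was chosen and the difference was -0.16 (adjusted p = 0.807). Btnl1 differed by 1.41 (SE 0.62, interval 0.04 to 2.79, adjusted p = 0.168) and Btnl2 by 1.50 (SE 0.88, interval -0.44 to 3.43, adjusted p = 0.282), and neither passed. Thus 1 of 3 members was called, in an adjacent comparison where 6.06% of all genes were called, 2.91% as higher in KO and 3.15% as lower (2450 genes with the replicate block, against 1209 without). None of the 3 overlapped between genotypes, and neither did 32.1% of all genes in the same direction.

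That call of Btnl5-ps was not firm. It was lost when any 1 of the 4 adjacent arrays was left out (adjusted p 0.0883 to 0.243, differences of 2.61 to 3.10) and with the mean of its probe sets (1.11, adjusted p = 0.2). Giving the unclear arrays their genotype by title brought the difference to 0.99 (adjusted p = 0.563), and by characteristic to 2.81 (adjusted p = 0.0582). With the replicate number as a block, Btnl5-ps (adjusted p = 0.0136) and Btnl1 (adjusted p = 0.0295) passed. The other probe sets of Btnl5-ps differed by -0.16 (adjusted p = 0.805) and 0.64 (adjusted p = 0.533), and the shared Btnl4 and Btnl6 probe set by 1.14 (SE 0.83, adjusted p = 0.382). Both floxed adjacent arrays have weak signal, so a fit without weak-signal arrays could not be made here.

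**Figure D3:**
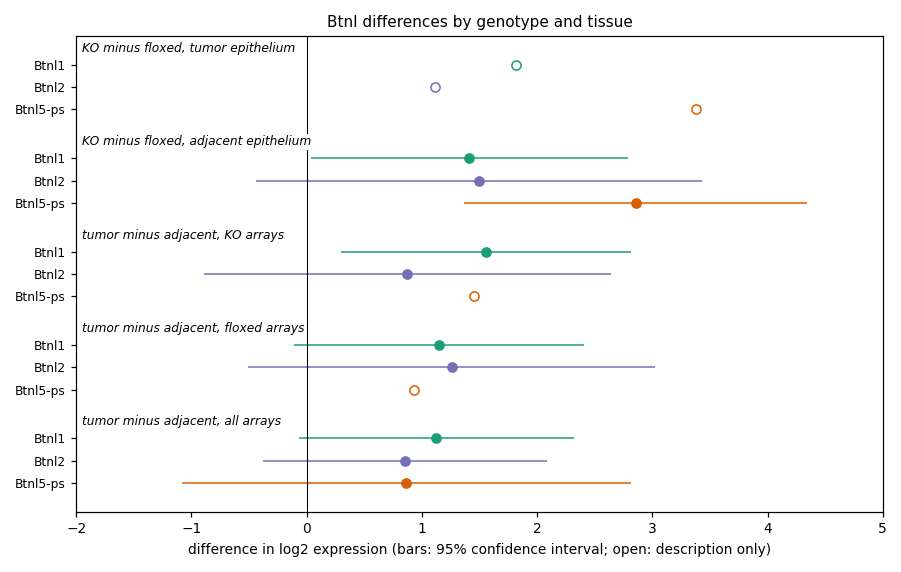
Differences in log2 expression (horizontal axis) of Btnl1, Btnl2 and Btnl5-ps in 5 comparisons. Filled points carry 95% confidence intervals, and open points are differences given as a description only. These are the 3 genes in KO minus floxed tumor, the comparison that chose them, and Btnl5-ps, the gene whose KO tumor rise led to the choice, in the comparisons of tissues within 1 genotype. In adjacent epithelium the interval of Btnl5-ps is 1.37 to 4.34. It is not independent of the choice of probe set, and both floxed adjacent arrays have weak signal. Over all arrays the interval of Btnl5-ps is not independent of the choice of the genes.

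Tumor against adjacent epithelium asked whether the genes differ between the tissues of one genotype. In KO arrays, which all have strong signal, the 3 members stood higher in every tumor array than in either adjacent array, as did 17.9% of all genes. Btnl1 was 1.56 higher in KO tumor than in KO adjacent arrays (SE 0.57, interval 0.30 to 2.81), an unadjusted p of 0.0197 and an adjusted p of 1.00 in limma. Btnl2 was 0.87 higher (SE 0.80, interval -0.89 to 2.64, adjusted p = 1.00), and the shared Btnl4 and Btnl6 probe set 0.81 higher (adjusted p = 1.00). Btnl5-ps was 1.45 higher, given without a test because its rise in KO tumor led to the choice of the genes. Btnl1 and Btnl2 came with it by family and not by their own levels, although the same tumor arrays enter their tests. In size these were the 41st, 273rd and 57th largest rises for Btnl1, Btnl2 and Btnl5-ps among 19938 genes.

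Of the 2 members tested in KO arrays, 0 passed in limma and 1, Btnl1, had an unadjusted p under 0.05. Only 4 of all genes passed (0.0201%), each lower in KO tumor, and 492 had an unadjusted p under 0.05. That fit takes its spread from all 10 arrays of known genotype, the weak ones included. With only the 5 KO arrays in the fit, 1.85% of genes passed, and Btnl1 (SE 0.32, adjusted p = 0.0541) and Btnl2 (SE 0.20, adjusted p = 0.0815) remained above the threshold. With arrays weighted by their fit to the model, Btnl1 passed with a difference of 1.40 (adjusted p = 0.0041).

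In floxed arrays Btnl1 was 1.15 higher in tumor than in adjacent epithelium (SE 0.57, interval -0.11 to 2.40, adjusted p = 0.433). Btnl2 was 1.26 higher (SE 0.80, interval -0.51 to 3.02, adjusted p = 0.543), and Btnl5-ps was 0.93 higher, again without a test. Of the 2 tested, 0 passed in limma and 0 had an unadjusted p under 0.05. Across all genes 1 passed (0.00502%) and 2495 had an unadjusted p under 0.05. The tissues did not overlap for Btnl1, 1 of 3 members, as for 8.64% of all genes. Without floxed tumor array 2, the array with the lowest Btnl2, Btnl2 was 2.32 higher in tumor and passed (adjusted p = 0.0378).

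Over all 12 arrays, 6 tumor and 6 adjacent, every member was tested. Each genotype weighs alike among the tumor arrays, so the KO minus floxed gap in tumor does not enter the difference. The model has no genotype term, however, so that gap adds to the spread. For Btnl5-ps, chosen by that gap, the interval and p-value are therefore not independent of the choice. Btnl1 had a lowest, median and highest log2 level of 4.89, 6.96 and 8.10 in tumor, against 4.31, 5.30 and 6.63 in adjacent arrays. Btnl2 had 3.89, 6.93 and 7.64 in tumor, against 4.65, 5.83 and 6.86 in adjacent arrays. Btnl5-ps had 4.36, 7.99 and 9.52 in tumor, against 4.58, 6.72 and 8.59 in adjacent arrays. The tissues overlapped for all 3, and 0.0652% of all genes were higher in tumor without overlap. The differences were 1.13 for Btnl1 (SE 0.56, interval -0.07 to 2.32), 0.85 for Btnl2 (SE 0.57, interval -0.38 to 2.08) and 0.87 for Btnl5-ps (SE 0.91, interval -1.08 to 2.82), each with an adjusted p of 1.00 in limma. Of the 3, 0 passed and 0 had an unadjusted p under 0.05, and 0 of all genes passed (0.00%), with 513 at an unadjusted p under 0.05. On the 8 arrays without weak signal the differences were 1.45, 1.06 and 1.18 for Btnl1, Btnl2 and Btnl5-ps, with adjusted p of 0.41, 0.446 and 0.808. The intervals over the 12 arrays include both no difference and differences above 2 log2 units.

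Enterocytes carry the pair of Btnl1 and Btnl6, and markers of villus enterocytes were read on the same arrays. In KO arrays 25 of 25 measured enterocyte markers were higher in tumor than in adjacent epithelium, with a median difference of 1.29 against 0.04 over all genes, and 0 passed in limma over the 10 arrays. In the fit of the 5 KO arrays, 7 of the 25 rose, where 0.557% of all genes did. They included the glucose transporters Slc5a1 (2.36, adjusted p = 0.0227) and Slc2a2 (2.09, adjusted p = 0.0143), the disaccharidase Mgam (2.17, adjusted p = 0.0123) and the lipoprotein assembly gene Mttp (1.36, adjusted p = 0.0319). In bulk epithelium, more cells of a type and more RNA per cell cannot be told apart. The part of enterocyte content in the Btnl differences was not tested. Between genotypes, each of the 9 list and neighbour genes named as passing in the following paragraphs kept its sign but lost its call after a further quantile normalization, with adjusted p of 0.0534 to 0.213.

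Crypt and stem cell markers were mostly lower in KO tumor than in KO adjacent arrays. Of 11 measured, 1 was higher in tumor, with a median difference of -0.74. In the fit of the 5 KO arrays, where 1.85% of all genes passed in either direction, 3 of the 11 fell in tumor. These were the stem cell marker Lgr5 (-1.28, adjusted p = 0.0307), the crypt factor Sox9 (-0.74, adjusted p = 0.0453) and Myc, a driver of proliferation (-1.72, adjusted p = 0.0148). Tissue labels were taken as given, and whether the cut cells match them was not tested. Every tumor against adjacent difference depends on those labels. In floxed arrays 24 of 25 enterocyte markers were higher in tumor than in adjacent epithelium, with a median difference of 1.99, and 0 passed. Between genotypes in tumor epithelium 21 of 25 enterocyte markers were higher in KO, with a median difference of 0.92, and 0 passed. After median and deviation scaling the median was 0.27. Against floxed tumor array 3 alone this turned: 3 of 25 were higher in KO tumor, with a median difference of -0.97. Btnl2 turned too (-0.51), and the shared Btnl4 and Btnl6 probe set averaged 6.42 in KO tumor, against 6.52 on that array. Btnl1 and the first probe set of Btnl5-ps did not turn, at 0.48 and 1.98 higher in KO tumor. Between genotypes in adjacent epithelium 23 of 25 enterocyte markers were higher in KO, with a median difference of 1.15, and 0 passed. The fatty acid binding protein Fabp1 averaged 9.38 in KO adjacent and 7.0 in floxed adjacent arrays, a difference of 2.39 (adjusted p = 0.142). For these adjacent differences genotype and weak signal cannot be told apart.

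**Figure D4:**
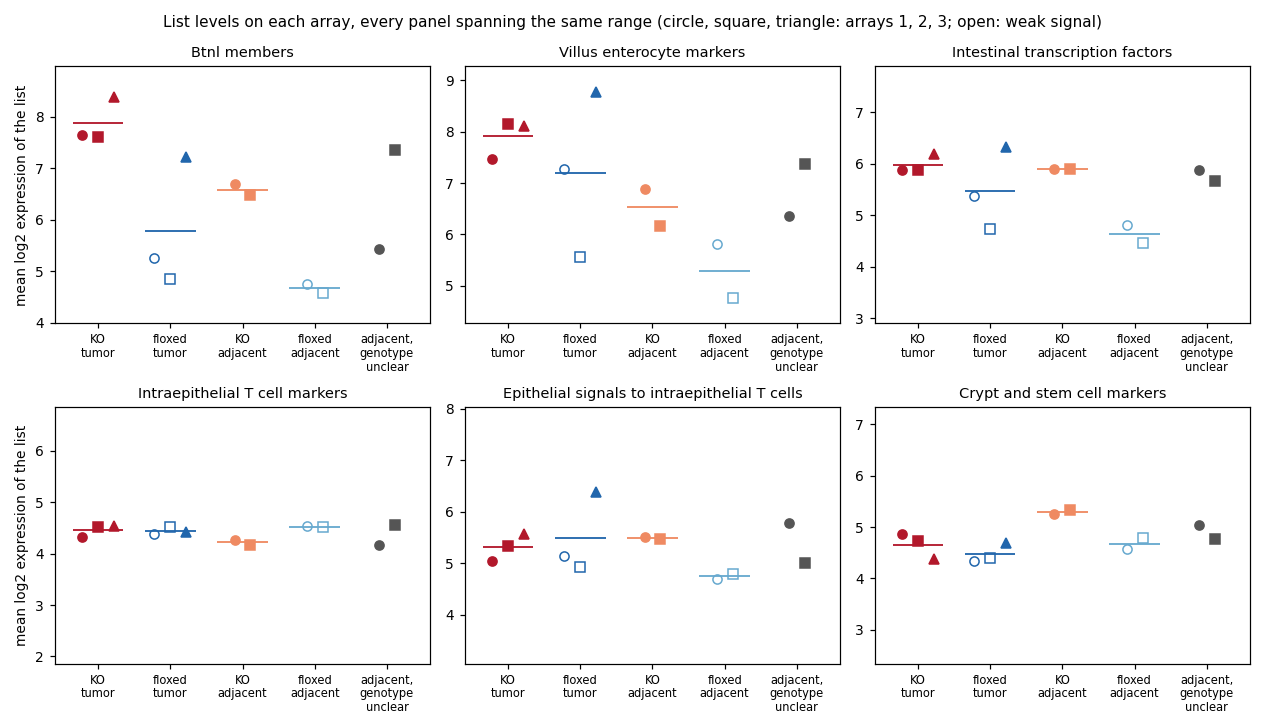
Mean log2 expression (vertical axis) of the Btnl members and 5 gene lists on each array, by group (horizontal axis). Symbols are arrays 1 to 3, open symbols are weak-signal arrays and lines are group means, and every panel spans the same number of log2 units. Enterocyte markers span 4.77 to 8.77 over the arrays of known genotype, while intraepithelial T cell markers span 4.17 to 4.54.

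Transcription factors of the intestine were taken next, since several act on enterocyte genes. In adjacent epithelium 18 of 18 measured factors were higher in KO, with a median difference of 1.17 against -0.04 over all genes, and 1 passed: Foxa3, a forkhead factor, averaged 6.22 ± 0.14 in KO adjacent and 4.42 ± 0.21 in floxed adjacent arrays (log2, SD, n = 2 each, adjusted p = 0.0163). That count, 1 of 18, is near the 6.06% of all genes that passed there. The list's mean level was 5.89 and 5.90 in KO adjacent arrays, against 4.80 and 4.47 in floxed adjacent arrays. Since the 2 floxed adjacent arrays have weak signal, genotype and weak signal cannot be told apart for this direction. In tumor epithelium 14 of 18 were higher in KO, with a median difference of 0.47, and 1 passed, where 1.08% of all genes did. It was Maf, a bZIP factor, at 7.0 ± 0.10 in KO tumor and 5.27 ± 0.74 in floxed tumor arrays (SD, n = 3 each, adjusted p = 0.0487). The direction of this list in tumor rests on the weak-signal arrays. Its mean level was 5.87 to 6.20 in KO tumor arrays, against 5.37 and 4.73 in floxed tumor arrays 1 and 2 and 6.33 in floxed tumor array 3. Against array 3 alone 4 of 18 were higher in KO tumor, with a median difference of -0.44, and Maf was 0.92 higher. In KO arrays Foxa3 was 1.11 lower in tumor than in adjacent epithelium, opposite to the Btnl genes, and this passed in the fit of the 5 KO arrays (adjusted p = 0.0207). Hnf4g was 1.50 higher (adjusted p = 0.031 in that fit), Maf 0.88 higher (adjusted p = 0.0368) and Foxa1 1.11 lower (adjusted p = 0.0493).

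Hnf4g, one of the HNF4 factors, was among the 3 genes whose pattern was most like that of Btnl1. Likeness was the root mean square difference between the log2 levels of 2 genes, each centred on its own mean, over the 12 arrays and 19937 other genes. The 3 nearest to Btnl1 were the phosphodiesterase-like gene Smpdl3b (0.325), the glycerol phosphate dehydrogenase Gpd1 (0.350) and Hnf4g (0.365), where Btnl1 itself had an SD of 1.22. Hnf4g had log2 levels of 7.60, 7.60 and 7.76 in KO tumor arrays, against 5.60, 4.95 and 7.54 in floxed tumor arrays. It had 6.63 and 5.69 in KO adjacent, against 4.21 and 4.41 in floxed adjacent arrays. The arrays of unclear genotype had 5.75 and 7.02. Like Btnl1, it was higher in every KO array than in the floxed arrays of the same tissue. Hnf4a, its partner, was not in tumor: it had 6.84, 6.93 and 7.65 in KO tumor, against 5.99, 4.49 and 8.40 in floxed tumor arrays, a difference of 0.85 (adjusted p = 0.577). In adjacent epithelium Hnf4a had 6.84 and 6.94 in KO, against 6.20 and 3.79 in floxed arrays (adjusted p = 0.254).

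For Btnl2 the nearest genes were the unconventional myosin gene Myo15b (0.336), the triglyceride synthesis gene Dgat1 (0.340) and the phospholipid synthesis gene Pcyt2 (0.354). For Btnl5-ps they were 4932438A13Rik (0.633), Tmem98 (0.657) and Tmem150b (0.664), farther off than for the other members. Within the family, Btnl2 was the 173rd nearest gene to Btnl1 (0.638) and Btnl1 the 19th nearest to Btnl5-ps (0.819). Likeness here includes the split between weak-signal and other arrays. On the 8 arrays without weak signal the nearest genes were others: Nat8, Cda and Dgat1 for Btnl1, Slc6a8, Castor2 and Sema6a for Btnl2, and Agmo, Vaultrc5 and Tm4sf5 for Btnl5-ps.

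Markers of intraepithelial T cells, to which the gamma-delta cells engaged by Btnl proteins belong, were read on the same arrays. The gamma-delta receptor gene Trdc was not among those measured, so the markers do not set gamma-delta cells apart from other T cells. The mean log2 level of 26 measured intraepithelial T cell markers, of 35 listed, was 4.33 to 4.53 in KO tumor, 4.37 to 4.52 in floxed tumor, 4.17 to 4.26 in KO adjacent and 4.51 to 4.54 in floxed adjacent arrays. Such a mean can hide members that differ in opposite directions: between KO and floxed adjacent epithelium single markers differed by -1.66 to 0.92. RMA values have no true zero, so no marker is listed at 0. Among defining markers, the T cell receptor subunit Cd3e averaged 5.09 in KO tumor and 4.36 in floxed tumor arrays (adjusted p = 0.239), and the co-receptor Cd8a 5.14 in KO tumor and 4.63 in floxed tumor arrays (adjusted p = 0.341). The integrin Itgae averaged 4.79 in KO tumor and 4.48 in floxed tumor arrays (adjusted p = 0.545). These were among the 14 of 26 markers that were higher in KO tumor. Others on the list were lower there: Cd3d averaged 3.39 in KO tumor and 3.93 in floxed tumor arrays. Cd160 averaged 3.35 in KO tumor and 4.03 in floxed tumor arrays, and Cd3g 3.55 in KO tumor and 3.62 in floxed tumor arrays.

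In tumor epithelium 14 of 26 of these markers were higher in KO, with a median difference of 0.11 against -0.01 over all genes, and 0 passed. In adjacent epithelium 7 of 26 were higher in KO, with a median difference of -0.31. There 2 passed, both lower in KO: the activation marker Cd69 averaged 2.76 in KO adjacent and 4.42 in floxed adjacent arrays (adjusted p = 0.0286), and the natural killer receptor gene Klrd1 3.30 in KO adjacent and 4.80 in floxed adjacent arrays (adjusted p = 0.0288). This count, 2 of 26, is near the 6.06% of all genes that passed there and does not set the markers apart. The 2 floxed adjacent arrays have weak signal, and their medians over all probe sets were 4.395 and 4.437. Genotype and weak signal therefore cannot be told apart for Cd69 and Klrd1. In KO arrays 24 of 26 were higher in tumor than in adjacent epithelium, with a median difference of 0.19 against 0.04 over all genes, and 0 passed. Alpha-beta T cell markers, 6 measured of 11 listed, had median differences of -0.09 in tumor and -0.31 in adjacent epithelium between KO and floxed, and 0 passed.

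Other epithelial signals to intraepithelial T cells were measured for 15 of 18 listed genes. Tnfrsf14, the receptor HVEM by which epithelium signals to these cells, rose in KO adjacent epithelium, at 5.77 ± 0.21 in KO and 3.90 ± 0.90 in floxed arrays (SD, n = 2 each, adjusted p = 0.0277). It was the only one of the 15 that passed there, a count near the 6.06% of all genes, and 0 passed in tumor epithelium. The list's median difference was 0.81 in adjacent and 0.17 in tumor epithelium between KO and floxed, and -0.91 between KO tumor and floxed tumor array 3 alone. For the adjacent values, Tnfrsf14 included, genotype and weak signal cannot be told apart. In KO arrays 7 of 15 were higher in tumor than in adjacent epithelium, and Plet1, a surface protein of epithelial progenitors, fell by 1.72 in the fit of the 5 KO arrays (adjusted p = 0.0036).

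Other butyrophilin and Skint genes were measured for 13 of 18 listed. Their median difference was -0.60 between KO and floxed tumor and -0.99 between KO and floxed adjacent epithelium, where 3 and 1 of the 13 were above 0. In tumor this rests on the weak-signal arrays: the list's mean level was 3.25 to 3.35 in KO tumor arrays, against 4.04 and 4.29 in floxed tumor arrays 1 and 2 and 3.13 in floxed tumor array 3. Against array 3 alone 6 of 13 were higher in KO tumor, with a median difference of -0.01. Skint4, of a family known for selecting gamma-delta T cells of the skin, passed in adjacent epithelium, with 2.36 in KO and 4.16 in floxed arrays (adjusted p = 0.0481), 1 of 13 where 6.06% of all genes passed. Both floxed adjacent arrays have weak signal, and the mean level of this list was 3.23 in both KO adjacent arrays and 3.93 to 4.11 in floxed adjacent arrays. Btnl9, a relative elsewhere in the genome, averaged 5.44 in KO tumor and 4.57 in floxed tumor arrays (adjusted p = 0.106).

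On the chromosome, the members lie between the class II histocompatibility genes H2-Ab1, H2-Aa, H2-Eb1, H2-Eb2 and H2-Ea on one side and Notch4, Gpsm3, Pbx2, Ager and Rnf5 on the other, in RefSeq's gene order, with BC051142 among them. Of these 11 measured neighbours, 0 passed between KO and floxed tumor, where their differences ran from -1.37 to 2.25 with a median of 0.39. The antigen presentation genes H2-Aa (2.25, adjusted p = 0.115) and H2-Ab1 (2.20, adjusted p = 0.117) were at the upper end. In adjacent epithelium 1 of the 11 passed, where 6.06% of all genes did. It was Rnf5, a ubiquitin ligase gene, which was 2.05 higher in KO (adjusted p = 0.0163), and the range was -2.07 to 2.05. Genotype and weak signal cannot be told apart there. In KO arrays the 11 differed between tumor and adjacent epithelium by -0.02 to 1.35, with a median of 0.13 and 0 passing. BC051142, which lies between the Btnl genes, differed by -0.51 in tumor and -0.27 in adjacent epithelium between KO and floxed.

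Markers of other cells that a laser cut could carry were also read. B cell and dendritic cell markers, 9 measured, had a mean level of 4.11 to 4.46 in KO tumor and 4.29 to 4.87 in floxed tumor arrays, and smooth muscle markers, 6 measured, 4.54 to 4.74 in KO tumor and 4.38 to 4.58 in floxed tumor arrays. None of either list passed between genotypes. Of 9 fibroblast markers 6 were higher in KO tumor than in floxed tumor arrays, with differences of -0.87 to 1.21 and a median of 0.50. That median was 0.14 after quantile normalization and 0.11 after median and deviation scaling. Against floxed tumor array 3 alone 8 of 9 were higher in KO tumor, with a median difference of 0.73, and Col3a1 was 0.99 higher. In adjacent epithelium 7 of 9 were higher in KO, with differences of -1.13 to 1.53 and a median of 0.58. Their mean level was 4.69 to 4.87 in KO tumor, 4.30 to 4.60 in floxed tumor, 5.01 to 5.11 in KO adjacent and 4.60 to 4.74 in floxed adjacent arrays. In each tissue 1 of the 9 passed, where 1.08% of all genes passed in tumor and 6.06% in adjacent epithelium. The collagen gene Col3a1 rose in KO tumor (5.61 in KO tumor and 4.40 in floxed tumor arrays, adjusted p = 0.0478), and the proteoglycan gene Dcn in KO adjacent epithelium (6.03 in KO adjacent and 4.50 in floxed adjacent arrays, adjusted p = 0.0315). For Dcn and the adjacent values, genotype and weak signal cannot be told apart. Exocrine pancreas markers, 7 measured, varied widely, with means of 4.24 to 6.80 in KO tumor and 4.59 to 8.25 in floxed tumor arrays, and 0 passed. The 8.25 was that of floxed tumor array 3, the highest of any array, against 4.65 and 4.59 in floxed tumor arrays 1 and 2. Against array 3 alone 0 of 7 were higher in KO tumor, with a median difference of -3.29. Every comparison with array 3 alone therefore rests on the array with the highest pancreas marker level. The part of these cells in the Btnl differences was not tested.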

How the data were processed

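The deposited values are log2 expression values of 12 arrays labelled with biotin through a GeneChip WT Pico kit, per the labels' protocols. They were made with RMA (robust multi-array averaging) and Partek, per the submitters' processing notes. Versions, probe annotation build and any later step were not found in the labels.

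Symbols came from the platform's annotation: 21789 of 35556 probe sets carried 1 symbol, 1621 carried several and 12146 none that could be used here. By Entrez identifier 21698 were found in RefSeq's table, which altered 0 symbols. A gene was represented by the probe set of highest mean (19938 genes, 999 with a choice of probe sets). Precision is limited by the number of arrays.

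A limma model (limma 3.58.1, R 4.3.3, lmFit and eBayes, two-sided) held 1 term for each of the 4 groups and the 10 arrays of known genotype, and p-values were adjusted over all genes by Benjamini-Hochberg, with 0.05 as the threshold of a call. Tumor minus adjacent over all arrays used the 12 arrays. Members, lists, rules and tests were chosen with earlier results of these data known. Named genes were the members, up to 4 passing genes of each list (otherwise the 2 highest on average), the 3 most similar genes of each member, Ppard, the defining markers of the cell types, and 5 measured neighbours on each side. Weak signal means a median correlation with the other arrays under 0.7, set after the values were seen. The fits of the lists on the 5 KO arrays and on 8 arrays, the list values against floxed tumor array 3 alone, and the choice of probe set on the tumor or the floxed arrays were added after seeing the data.

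Deviations from the group means correlated at 0.105, 0.121 and 0.348 in KO and floxed tumor arrays with the same number, above the 0.1 taken as a sign of pairing in each. KO tumor array 1 correlated more with floxed tumor array 2 (0.246) than with its own number. The adjacent pairs correlated at 0.0099. With 2 arrays in a group the deviations mirror each other, so both pairs must give the same value and do not count separately. What a shared number stands for is not labelled. The model has no term for it, so every p-value is unpaired unless the replicate block is named.

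The steps were tested on simulated data for KO minus floxed adjacent epithelium with 19938 genes, 50 changed at each size. Changes of 1, 2, 3 and 4 log2 units were recovered in 4%, 64%, 86% and 92% of genes, with 1 unchanged gene called. The simulated noise was drawn independently for each gene around a common mean, without a shift of levels on weak-signal arrays. The false calls in it therefore do not tell how many real calls come from weak signal. Alternatives were other scaling, a filter on the dimmest 30% of genes, all probe sets or their mean, other variance options, array weights, other sets of arrays, a block for the replicate number, and the unclear labels read either way.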

Additional observations from a re-analysis of the deposited data

Results flagged for a closer look

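Btnl2 on floxed tumor array 2 had a log2 level of 3.89, far below the other 5 tumor arrays, which ran from 6.52 to 7.64. Its gap to the next array was 0.703 of the whole range of the 6 tumor arrays, above the 95% critical value of Dixon's test. The array is one of the 4 of weak signal. Chance flags about 1 in 20 groups, and 12 groups of 6 arrays were examined. Without it, Btnl2 was 2.32 higher in floxed tumor than in floxed adjacent epithelium, against 1.26 with it.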

How the results depend on the processing

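Member differences in KO minus floxed tumor epithelium kept their sign under all alternatives run, except that Btnl2 was -0.51 without weak-signal arrays and Btnl5-ps -0.22 with probe sets taken by their mean over the floxed arrays. That choice, added after seeing the data, took another probe set of Btnl5-ps and also turned its difference in adjacent epithelium, to -0.16. Without weak-signal arrays Btnl5-ps was 1.98 in tumor, and it was 1.23 with the mean of its probe sets, against 3.38. In floxed arrays Btnl5-ps turned to -0.32 between tumor and adjacent epithelium with unclear labels read by title. The cause was not tested.

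The count of members called in KO minus floxed adjacent epithelium, 1 of 3, was 0 after a further quantile normalization, with median and deviation scaling, without the dimmest 30% of genes, with the mean of probe sets, with trend and robust variance, with probe sets taken over the floxed arrays, and with either reading of the unclear labels. It was 0 to 0 with each array left out in turn, 2 with the replicate block and 3 with only the arrays compared. The adjusted p of Btnl5-ps ran from 0.0031 to 0.807. Between tumor and adjacent epithelium the count of 0 became 1 in KO arrays with array weights and ran from 0 to 1 in floxed arrays with each array left out. The replicate block changed no other call of a member or of the 9 other genes named as called between genotypes, each of which kept its sign in every alternative and lost its call under 6 to 12 of them.

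Calls over all genes ranged widely, from 0 (labels by title) to 5793 (without floxed tumor array 3) against 215 in tumor, with 782 under the block. They ranged from 1 (labels by title) to 4034 (array weights) against 1209 in adjacent epithelium, with 2450 under the block. They reached 1042 against 4 in KO arrays, 343 against 1 in floxed arrays and 127 against 0 over all arrays. Weak signal in 4 arrays limits every value for floxed mice.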
